A study of Mus musculus with 10 samples.

Results

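The scavenger receptors described here are encoded by 10 genes, namely Msr1, Marco, Cd36, Olr1, Scarb1, Scarb2, Cd68, Stab1, Mrc1 and Lrp1. They were chosen by name as receptors for modified lipoproteins and cell debris. All 10 were found among the 56980 genes of the count table, each on 1 row, and all 10 were among the 14436 genes with enough counts to be tested.

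Scavenger receptors are surface and endosomal proteins that bind polyanionic or oxidised ligands, such as oxidised low-density lipoprotein (LDL), bacterial wall components and dying cells. They deliver them to lysosomes. They are not shut down by the cholesterol that a cell has taken up, which is how macrophages in the artery wall can fill with lipid and become foam cells. The group is defined by what its members bind and not by descent, so its proteins are of several unrelated structures.

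RNA-seq was done on mouse macrophages with an intact Jaml gene, which encodes a junctional adhesion molecule-like protein of leukocytes. These 5 libraries are labelled JAMLWT (WT). It was also done on macrophages labelled JAMLMKO in the titles and JAML Knockdown in the genotype tag (5 libraries). Cells of all 10 libraries were exposed to bacterial lipopolysaccharide (LPS, which is sensed by TLR4) for 8 h, at 100 ng/ml, followed by 30 min of 5 mM ATP, so no comparison with resting cells was possible. The labels give no age, strain, Cre driver or tissue of origin for the cells. The 5 WT count columns carry WT in their heading and match the labels, and the other 5 are headed SI, which no label explains. The SI columns were taken as the Jaml-deficient group because the series has no other group, and they are called SI below. Each direction rests on that assignment.

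Libraries held 19319512 to 22766319 counts. Jaml itself had 0 to 2 counts per library, under a floor of 3 counts, and so could not check the assignment. The first principal component separated WT from SI and held 43.7% of the variance. On the second (14.7%) SI 1 and SI 3 lay apart from the other 3 SI libraries, so counts are also given without them where they differ. Macrophage markers were abundant in every library: summed over 7 genes they gave 21509 to 22987 CPM in WT and 20534 to 22342 CPM in SI, where CPM is a gene's count scaled for library size and composition. Most of that sum was Lyz2 (lysozyme), at 18210 CPM in WT and 17531 CPM in SI, followed by Adgre1 (F4/80), at 1555 and 1535 CPM. Neither was called, nor was Itgam. Of the other 4, Cd14 and Csf1r were higher in SI (edgeR adjusted p = 0.00953 and 0.00857), and Mertk and C1qa were lower (edgeR adjusted p = 0.00127 and 6.41e-05). The labels do not say whether each library had its own animal or culture. The p-values therefore reflect only how these libraries vary, and part of that may be technical.

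The proximal promoters of the receptors whose RNA differed are shown so that their sequence can be read beside the direction of each difference. RefSeq promoters (build GRCm38.p6) were found for 8 of the 10 genes, all but Msr1 and Scarb1. Of these 8, 4 belong to genes that differed between WT and SI, and their 250 bases upstream of the start are printed 5′ to 3′ on the gene's strand. Capitals mark matches to 6 motifs searched on both strands: TGANTCA (AP-1), GAGGAA (PU.1), TTGCNNAA (C/EBP), CACGTG (E-box), TGACNNNGC (antioxidant element) and a pair of AGGTCA half-sites 1 base apart (PPAR). TGANTCA and TGACNNNGC can share bases.
Olr1, chr6:129507166-129507415, minus strand: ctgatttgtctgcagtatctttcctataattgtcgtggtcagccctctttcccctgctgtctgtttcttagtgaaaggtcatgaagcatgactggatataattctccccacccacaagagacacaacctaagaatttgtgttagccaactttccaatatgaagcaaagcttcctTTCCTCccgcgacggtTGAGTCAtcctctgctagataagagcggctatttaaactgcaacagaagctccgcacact
Cd36, chr5:17835897-17836146, minus strand: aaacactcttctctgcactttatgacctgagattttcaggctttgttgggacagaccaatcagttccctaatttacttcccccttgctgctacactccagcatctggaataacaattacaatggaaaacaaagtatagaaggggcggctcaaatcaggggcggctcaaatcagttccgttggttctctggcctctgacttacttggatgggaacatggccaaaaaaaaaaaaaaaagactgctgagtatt
Marco, chr1:120505025-120505274, minus strand: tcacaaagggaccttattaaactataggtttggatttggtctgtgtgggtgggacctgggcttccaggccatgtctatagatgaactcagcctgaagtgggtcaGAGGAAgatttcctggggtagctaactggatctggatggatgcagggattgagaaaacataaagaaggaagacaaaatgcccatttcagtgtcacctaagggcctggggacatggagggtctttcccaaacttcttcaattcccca
Mrc1, chr2:14229164-14229413, plus strand: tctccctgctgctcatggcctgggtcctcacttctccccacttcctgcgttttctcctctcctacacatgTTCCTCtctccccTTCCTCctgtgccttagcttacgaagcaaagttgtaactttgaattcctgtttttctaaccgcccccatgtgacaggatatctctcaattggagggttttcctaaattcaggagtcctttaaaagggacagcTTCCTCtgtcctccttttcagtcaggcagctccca
Olr1, which was higher in SI, held 1 AP-1 match 60 to 54 bases upstream of the start and 1 PU.1 match at 76 to 71 bases. Marco held 1 PU.1 match and Mrc1 held 3, and the Cd36 window held no match to any of the 6. Each gene had 1 window, so any other start of a gene was not searched. Of the members not called, Cd68 held 2 AP-1 matches, 1 C/EBP match and 1 PU.1 match, and Stab1 held 1 PU.1 match. Scarb2 and Lrp1 held 1 antioxidant element match each. Over 32851 promoter windows of the same length, 6.75% held the AP-1 motif, 23.3% the PU.1 motif, 9.56% the C/EBP motif and 10.2% the antioxidant motif. The E-box stood in 6.02% and the PPAR motif in 0.0335% of windows, and neither was in any of the 8. A match describes letters only.

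Msr1, Cd36, Mrc1 and Marco were lower in SI than in WT (4 receptors), 2 were higher (Olr1 and Scarb1), and 4 were not called (Stab1, Cd68, Lrp1 and Scarb2). Thus 6 of 10 members passed, where 29.1% of all tested genes did (edgeR quasi-likelihood test, adjusted p under 0.05 over 14436 genes). By direction the background was 15.0% lower and 14.1% higher. All 10 members were among the 3609 tested genes with the most counts, of which 46.1% were called, so the share among the receptors is to be read against that of genes with as many counts. The same 6 members had WT and SI values that did not overlap, against 23.3% of tested genes. The median log2 fold change was -0.16 over the members and 0.01 over all tested genes. Only Msr1 was called with a change of at least 1.5-fold, as were 7.34% of tested genes. With library totals in place of composition scaling the median of all genes moved from 0.01 to 0.12, and Scarb2 and Cd68 became calls as well, giving 4 higher and 4 lower. Without SI 1 and SI 3, 3 receptors were higher (Cd68 being added) and 4 lower. In bulk RNA, fewer cells of a type and less RNA per cell cannot be told apart.

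**Figure D1:**
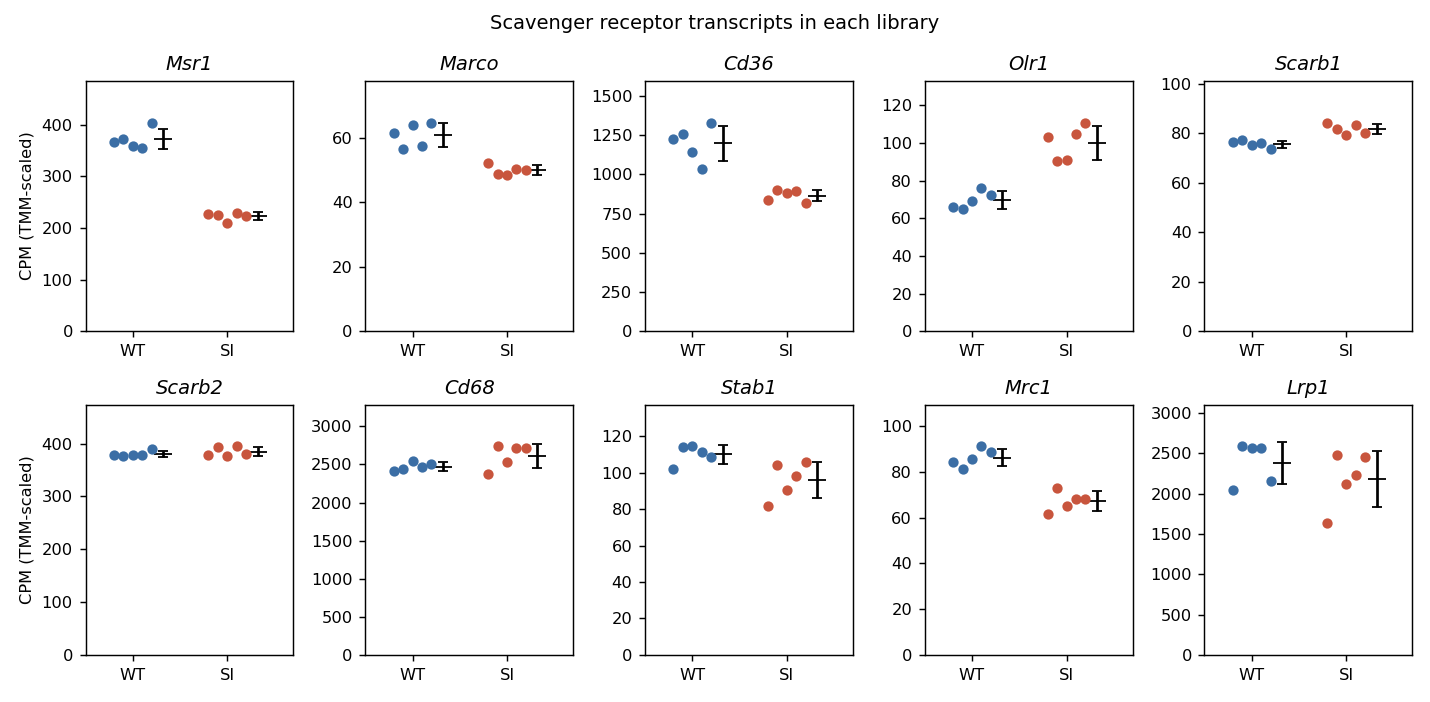
Each panel plots one receptor in CPM, with a point per library, WT in blue and SI in red, and the mean and SD of 5 libraries beside the points; every axis starts at 0. The WT and SI points do not overlap for Msr1, Marco, Cd36, Olr1, Scarb1 and Mrc1, and they overlap for Scarb2, Cd68, Stab1 and Lrp1.

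Class A receptors are trimers with a collagenous stalk. Msr1 (ENSMUSG00000025044, chromosome 8, 40034726 to 40095714), also called SR-A, takes up acetylated and oxidised LDL. It had the largest difference of the group. In WT 1 to WT 5 its level was 367.5, 373.4, 358.3, 355.5 and 404.0 CPM. In SI 1 to SI 5 it was 227.6, 224.8, 210.6, 228.5 and 223.9 CPM. The lowest WT library was thus far above the highest SI library, and the spread within SI was small (coefficient of variation 3.25%, against 5.22% in WT). Msr1 had a log2 fold change of -0.74 ± 0.04 (SE), 1.67-fold lower, with an edgeR adjusted p of 3.22e-07. By p-value Msr1 ranked 61 of the 14436 genes.

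Marco (ENSMUSG00000026390, chromosome 1, 120402267 to 120432753), the other class A member of the group, binds bacteria and inhaled particles and is induced in macrophages by microbial products. Its level was 61.6, 56.6, 64.0, 57.5 and 64.7 CPM in WT 1 to WT 5. It was 52.3, 48.8, 48.6, 50.5 and 50.1 CPM in SI 1 to SI 5. Marco was lower in every SI library than in any WT library, but by less than Msr1, at 1.22-fold (log2 fold change -0.28 ± 0.05, edgeR adjusted p = 0.000783).

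Class B receptors have their 2 ends in the cytoplasm and a large loop outside the cell or in the lysosome lumen. The 3 mouse members went separate ways. Cd36 (ENSMUSG00000002944, chromosome 5, 17986688 to 18093799) binds oxidised LDL and long-chain fatty acids and is a classical PPAR target. Its level was 1227, 1257, 1139.5, 1037 and 1329 CPM in WT 1 to WT 5. In SI 1 to SI 5 it was 833.5, 901.3, 878.9, 890.7 and 818.7 CPM. All SI libraries lay below all WT libraries, and WT 4 was the WT library closest to them. For Cd36 the log2 fold change was -0.47 ± 0.06, 1.39-fold lower (edgeR adjusted p = 0.000128).

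Scarb1 (ENSMUSG00000037936, chromosome 5, 125354151 to 125418158), the high-density lipoprotein receptor SR-BI, exchanges cholesteryl ester and free cholesterol at the cell surface. Its level was 76.3, 77.3, 75.05, 75.9 and 73.5 CPM in WT 1 to WT 5. It was 84.2, 81.6, 79.2, 83.4 and 79.9 CPM in SI 1 to SI 5. The groups did not overlap, yet the gap between the highest WT and the lowest SI library was narrow. Scarb1 had a log2 fold change of 0.11 ± 0.03, 1.08-fold higher (edgeR adjusted p = 0.0265). This call was lost without SI 4 (edgeR adjusted p = 0.0549), and it held without SI 1 and SI 3 (edgeR adjusted p = 0.049).

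Scarb2 (ENSMUSG00000029426, chromosome 5, 92589173 to 92654692), or LIMP-2, is a lysosomal membrane protein that carries an enzyme to lysosomes. Its level lay between 377 and 390 CPM in WT and between 377 and 395 CPM in SI. It had the smallest spread and the smallest difference of the group, with a log2 fold change of 0.02 ± 0.03 and a 95% interval from -0.05 to 0.08 (edgeR adjusted p = 0.717). With library totals its log2 fold change was 0.13 (edgeR adjusted p = 0.00136), about the shift of all genes under that scaling.

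Olr1 (ENSMUSG00000030162, chromosome 6, 129462207 to 129484128) encodes LOX-1, a class E receptor with a C-type lectin fold that binds oxidised LDL and is induced by inflammatory signals. It moved in the direction opposite to Msr1 and Cd36, which also bind oxidised LDL. Its level was 66.0, 64.8, 69.2, 75.9 and 72.3 CPM in WT 1 to WT 5. It was 102.9, 90.5, 91.1, 104.6 and 110.7 CPM in SI 1 to SI 5. All SI libraries exceeded all WT libraries, with SI 2 and SI 3 the lowest of the 5. The log2 fold change was 0.52 ± 0.07, 1.44-fold higher (edgeR adjusted p = 0.000109).

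Cd68 (ENSMUSG00000018774, chromosome 11, 69555039 to 69556979), or macrosialin, is a mucin-like glycoprotein of late endosomes and a standard marker of macrophages. Its level was 2411 to 2547 CPM in WT and 2375 to 2737 CPM in SI. The SI range enclosed the WT range, since SI 1 lay below every WT library while SI 2, SI 4 and SI 5 lay above every WT library. The log2 fold change was 0.08 ± 0.04 (95% interval -0.01 to 0.17, edgeR adjusted p = 0.181). Without SI 1 it was 0.11 (edgeR adjusted p = 0.0206), and without SI 1 and SI 3 it was 0.14 (edgeR adjusted p = 0.00615).

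Mrc1 (ENSMUSG00000026712, chromosome 2, 14234203 to 14336868), the mannose receptor CD206, takes up mannosylated glycoproteins and collagen fragments and marks alternatively activated macrophages. Its level was 84.6, 81.3, 85.7, 91.2 and 88.8 CPM in WT 1 to WT 5. It was 61.8, 73.1, 65.1, 68.0 and 68.4 CPM in SI 1 to SI 5. The groups did not overlap, and the log2 fold change was -0.36 ± 0.05, 1.28-fold lower (edgeR adjusted p = 0.000222).

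Stab1 (ENSMUSG00000042286, chromosome 14, 30860970 to 30890598) encodes stabilin-1, a class H receptor for acetylated LDL, SPARC and phosphatidylserine. Its level was 101.9, 114.2, 114.5, 111.2 and 108.8 CPM in WT 1 to WT 5. It was 81.6, 104.2, 90.7, 98.1 and 105.9 CPM in SI 1 to SI 5. SI 2 and SI 5 lay above the lowest WT value, and SI 1 and SI 3 were the lowest of all 10. The log2 fold change was -0.20 ± 0.07 (95% interval -0.35 to -0.04) and just missed the threshold with an edgeR adjusted p of 0.0534. It was -0.10 without SI 1 and SI 3 (edgeR adjusted p = 0.169) and -0.08 with library totals (edgeR adjusted p = 0.306). In 8 of the 18 alternatives run Stab1 was called lower, for example at -0.20 with DESeq2 (Wald test adjusted p = 0.0285). The locus overlaps Nt5dc2, which had 311 to 513 counts, and without a stated strand setting reads of the shared part cannot be assigned.

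Lrp1 (ENSMUSG00000040249, chromosome 10, 127374030 to 127457017) is a giant receptor of the LDL receptor family that clears apolipoprotein E remnants, protease-inhibitor complexes and calreticulin-marked cells. Its level was 2047, 2586, 2566, 2561 and 2159 CPM in WT 1 to WT 5. It was 1630, 2476, 2119, 2236 and 2454 CPM in SI 1 to SI 5. WT 1 and WT 5 were low within WT and SI 1 was the lowest of all 10, so that Lrp1 had the widest spread of the group, with a coefficient of variation of 10.9% in WT and 15.7% in SI. The log2 fold change was -0.13 ± 0.11 (95% interval -0.37 to 0.12, edgeR adjusted p = 0.441), and 0.00 without SI 1 and SI 3 (edgeR adjusted p = 0.991). Log2 fold changes within that 95% interval remain compatible with the data for this gene.

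**Figure D2:**
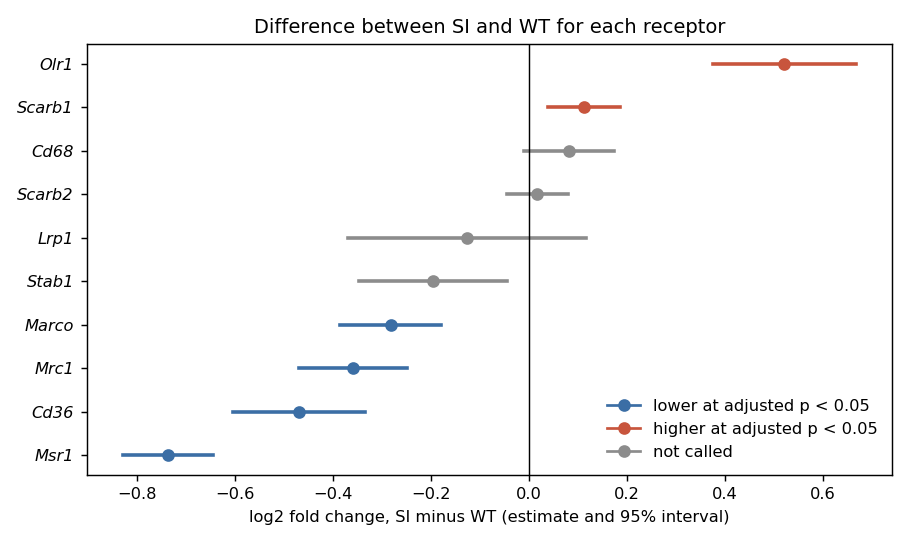
The plot gives the log2 fold change of each receptor, SI minus WT, with a 95% interval derived from the F statistic of the edgeR fit. Members lower in SI are in blue, members higher in red and members not called in grey. Estimates run from -0.74 for Msr1 to 0.52 for Olr1, and the interval of Lrp1 is the widest.

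Levels of different genes can be compared only per length. FPKM (fragments scaled to gene length and library total) was therefore used for the order of the receptors. It lacks the composition scaling of CPM, so the FPKM of a gene is not to be compared between WT and SI. Scarb2 and Cd68, for example, had higher FPKM in every SI library than in any WT library, while their CPM overlapped. In WT, Cd68 stood far above the rest at 1148 ± 18.0 FPKM (mean ± SD, n = 5, as for the FPKM values below). It was followed by Cd36 at 138 ± 12.5 and Lrp1 at 109 ± 12.2 FPKM. Scarb2 and Msr1 came next at 54.3 ± 0.42 and 51.5 ± 2.39 FPKM. Marco had 29.0 ± 1.53 FPKM and Olr1 had 16.0 ± 1.02 FPKM. The lowest levels were those of Mrc1 at 11.1 ± 0.468, Stab1 at 6.59 ± 0.308 and Scarb1 at 5.91 ± 0.165 FPKM. Of the 9 neighbouring pairs in this order only Scarb2 and Msr1 had overlapping ranges.

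In SI 2 neighbouring pairs changed places. Cd36 had 108 ± 4.52 FPKM and was no longer above Lrp1 at 108 ± 15.2 FPKM, with Lrp1 the higher in 3 of 5 libraries. Msr1 at 33.5 ± 1.02 FPKM was separated from Scarb2 at 59.4 ± 0.886 FPKM in all 5 libraries. Olr1 at 24.9 ± 2.15 FPKM overlapped with Marco at 25.8 ± 1.10 FPKM, whereas in WT every Marco value lay above every Olr1 value. Scarb1 at 6.91 ± 0.250 FPKM was above Stab1 at 6.22 ± 0.531 FPKM in 4 of 5 libraries. These positions depend on the gene lengths behind the authors' FPKM: the length implied for Cd68, 2067 bases, is longer than its listed locus of 1941 bases.

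**Figure D3:**
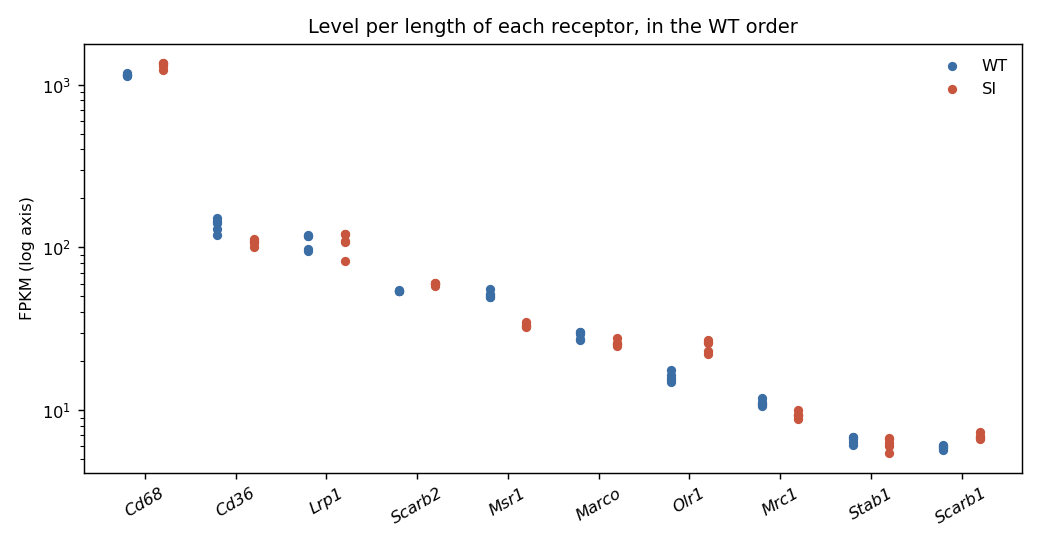
FPKM of each receptor is plotted on a log axis, one point per library, with WT in blue and SI in red and the genes in the order of their WT means. Cd36 and Lrp1 come together in SI, as do Marco and Olr1, while Scarb2 and Msr1 separate. FPKM lacks composition scaling, so WT and SI points of the same gene are not to be compared.

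In ratios between receptors within a library the library scaling cancels, apart from a small prior count. The pairs were chosen with earlier results of these data known, so the p-values below are no independent support. Cd36 was lower and Scarb1 higher in every SI library than in any WT library. The ratio of Cd36 to Scarb1 therefore had to separate. For 7 pairs the log2 count ratio was compared between groups with a two-sided exact permutation test, whose smallest p in this design is 0.00794, and p-values were adjusted over the 7 pairs. Msr1 fell relative to Marco by 0.45 ± 0.04 (difference ± SE on the log2 scale, as for the other pairs, with an exact permutation adjusted p of 0.00926). It also fell relative to Cd36 by 0.27 ± 0.05 (exact permutation adjusted p = 0.00926). The 2 receptors with the deepest decreases thus did not fall by equal amounts.

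Among class B members, Cd36 fell relative to Scarb1 by 0.58 ± 0.07 and relative to Scarb2 by 0.48 ± 0.06 (exact permutation adjusted p = 0.00926 for each). Scarb1 gained 0.09 ± 0.03 on Scarb2 (exact permutation adjusted p = 0.00926), or 0.08 without SI 1 and SI 3 (exact permutation adjusted p = 0.0536). Mrc1 gained 0.38 ± 0.06 on Msr1 (exact permutation adjusted p = 0.00926). For each of these 6 pairs the WT and SI ranges were separate. Stab1 gained 0.16 ± 0.06 on Mrc1, with overlapping ranges (exact permutation adjusted p = 0.0397). That call was lost when any of WT 1, WT 4, WT 5, SI 2, SI 4 or SI 5 was left out (exact permutation adjusted p up to 0.0714).

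**Figure D4:**
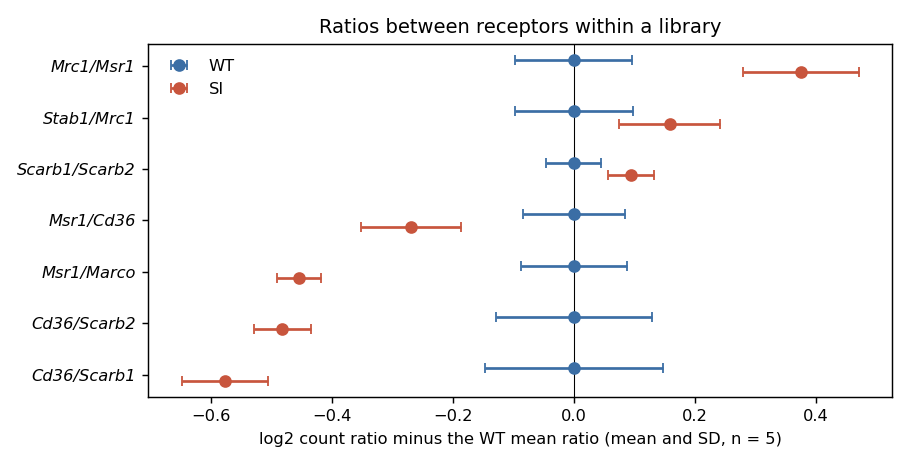
For 7 pairs of receptors the log2 ratio of counts is shown relative to the WT mean of that pair, as the mean and SD of 5 WT libraries in blue and 5 SI libraries in red. The 2 ratios with Cd36 over another class B receptor lie lowest in SI, at -0.58 and -0.48, and Mrc1 over Msr1 lies highest, at 0.38.

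The genes whose profile over the 10 libraries was most like that of Msr1 were sought among 9424 other genes, by the root mean square (RMS) difference in log2 CPM centred on each gene's mean. They were Slamf7, an immune cell receptor of the SLAM family, at an RMS difference of 0.0400, Kpna3, a nuclear import factor, at 0.0406, and Spryd7 at 0.0454. Their log2 fold changes were -0.74, -0.73 and -0.72. For Olr1 the nearest were Map6, a microtubule stabiliser, at 0.0477, Gng10, a G-protein gamma subunit, at 0.0520, and Pilra, an inhibitory receptor, at 0.0650. Their log2 fold changes were 0.58, 0.50 and 0.55. That these values lie near those of Msr1 and Olr1 follows from how the genes were picked.

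Other genes of the scavenger receptor nomenclature went both ways as well. Of 16 further receptors 10 were tested, and 3 were lower in SI, 2 higher and 5 not called. The called share was 50%, against 29.1% of all tested genes and 46.1% of the 3609 with the most counts. The lower genes numbered 4 without SI 1 and SI 3. The median log2 fold change over those tested was -0.22. Scarf1, a class F receptor for modified LDL, fell from 106 ± 4.16 to 75.9 ± 3.84 CPM (mean ± SD, n = 5 each, as for the CPM values below; log2 fold change -0.48 ± 0.04). Cd44, the hyaluronan receptor, fell by 0.31 ± 0.05 on the log2 scale. Colec12, a class A relative with a collectin head, rose from 18.8 ± 1.35 to 24.4 ± 1.26 CPM. Clec7a, the beta-glucan receptor dectin-1 and the gene of this list with the most counts, rose from 435 ± 9.47 to 511 ± 30.0 CPM.

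Among 13 tested relatives of Lrp1 and Mrc1, 5 were lower, 1 was higher and 7 were not called, with a median log2 fold change of -0.29. The called share was 46.2%, against 29.1% of all tested genes and 46.1% of the 3609 with the most counts. Lrp4, a receptor of the LDL receptor family known from the neuromuscular junction, had the largest difference, from 42.3 ± 3.04 to 18.4 ± 1.49 CPM. Lrp8, the apolipoprotein E receptor 2, rose from 53.2 ± 0.704 to 61.2 ± 3.83 CPM. With library totals 3 of these genes were higher, and without SI 1 there were 2. Without SI 1 and SI 3 there were 2 higher and 7 lower.

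Of 13 tested ligands of the receptors, 5 were higher, 2 lower and 6 not called, with a median log2 fold change of 0.15. The called share was 53.8%, against 29.1% of all tested genes and 46.1% of the 3609 with the most counts. The lower ligands numbered 3 without SI 1 and SI 3. Lpl, lipoprotein lipase, which bridges lipoproteins to Lrp1, rose by 0.87 ± 0.05 on the log2 scale. Calr, calreticulin, an eat-me signal read by Lrp1, rose from 757 ± 27.5 to 1008 ± 33.6 CPM. Thbs1, the thrombospondin that binds Cd36, went from 470 ± 20.4 to 311 ± 53.3 CPM, with a range of 259 to 390 CPM in SI. Plau, the urokinase cleared through Lrp1, fell by 0.25 ± 0.04 on the log2 scale. Apoe, the apolipoprotein of remnants and the ligand gene with the most counts, had 2305 ± 322 CPM in WT and 2124 ± 78.2 CPM in SI and was not called (edgeR adjusted p = 0.32).

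Genes of receptor traffic, shedding and signalling were split, with 4 higher, 7 lower and 7 not called of 18 tested. Their median log2 fold change was -0.01. The called share was 61.1%, against 29.1% of all tested genes and 46.1% of the 3609 with the most counts. The count of 7 lower genes was not stable: it was 5 or 6 whenever any 1 library was left out, and 5 with library totals, without the low-count filter and with the replicate block. Without SI 1 and SI 3 there were 3 higher and 6 lower. Lrpap1, the chaperone that keeps Lrp1 free of ligand on its way to the surface, rose from 407 ± 22.2 to 675 ± 26.4 CPM (log2 fold change 0.73 ± 0.04, edgeR adjusted p = 4.09e-07), while Lrp1 itself was not called. Mylip, the ubiquitin ligase that sends lipoprotein receptors to degradation, rose from 17.7 ± 1.15 to 23.2 ± 1.69 CPM. Lyn, a Src family kinase that Cd36 recruits, fell from 234 ± 10.4 to 151 ± 7.07 CPM. Tlr6, which pairs with Tlr4 under Cd36, fell from 46.7 ± 2.62 to 33.9 ± 2.16 CPM. Lamp1, a lysosomal membrane protein and the gene of this list with the most counts, fell by 0.13 ± 0.04 on the log2 scale (edgeR adjusted p = 0.0481).

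Of 15 tested genes for the fate of internalised lipid, 3 were higher, 7 lower and 5 not called. Their median log2 fold change was -0.11. The called share was 66.7%, against 29.1% of all tested genes and 46.1% of the 3609 with the most counts. The 2 efflux transporter genes Abcg1 and Abca1 rose by 1.04 ± 0.05 and 0.40 ± 0.08 on the log2 scale. Abca1 values overlapped between groups. Ch25h, which makes 25-hydroxycholesterol, went from 26.3 ± 2.39 to 9.35 ± 1.27 CPM. Stard3, a cholesterol carrier of late endosomes, went from 111 ± 8.20 to 63.8 ± 3.76 CPM. Npc2, a lysosomal cholesterol carrier and the gene of this list with the most counts, fell by 0.20 ± 0.04. With library totals 5 were higher and 4 lower, so the balance of this list turned with the scaling. Without SI 1 and SI 3 there were 4 higher and 7 lower.

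Transcription factors linked to scavenger receptor genes also differed in both directions, with 3 of 16 higher, 8 lower and 5 not called. Their median log2 fold change was -0.19. The called share was 68.75%, against 29.1% of all tested genes and 46.1% of the 3609 with the most counts. Pparg, the nuclear receptor known to activate Cd36, rose by 1.23 ± 0.08 on the log2 scale, in the libraries where Cd36 was lower. Its level was low in both groups, at 5.38 ± 0.155 CPM in WT and 12.6 ± 1.36 CPM in SI. Nfe2l2 (NRF2), which is known to induce Cd36 and Marco, fell from 372 ± 13.4 to 265 ± 12.3 CPM. Junb, an AP-1 subunit, fell from 190 ± 10.5 to 131 ± 4.85 CPM. With library totals 5 factors were higher and 8 lower. Whether any of these factors acted on the receptors was not tested.

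**Figure D5:**
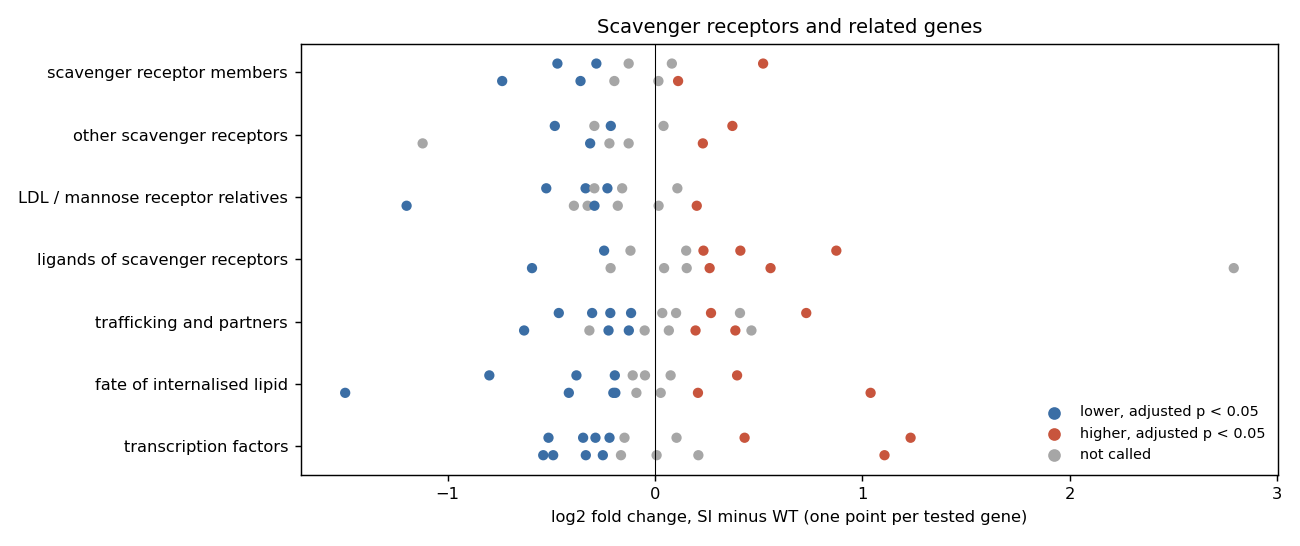
Each point is a tested gene of a list, placed by its log2 fold change, SI minus WT; blue points were lower, red points higher and grey points not called, and vertical offsets only keep points apart. Called genes lie on both sides of 0 in all 7 lists, and the isolated grey point in the ligand list, at 2.79, is Apob (named after its value was seen), which had 0.555 ± 0.778 CPM in WT and 3.78 ± 4.49 CPM in SI.

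Some receptors are also made by other cells, so markers of those cells were read beside them. Endothelial cells make Stab1 and Cd36, and adipocytes make Cd36. All 4 adipocyte markers had at most 3 counts in any library. The 6 endothelial markers summed to 23.1 to 28.8 CPM in WT and 10.6 to 12.6 CPM in SI. Nearly all of that sum was Kdr (23.1 CPM in WT, 8.43 in SI) and Cdh5 (2.87 and 2.82 CPM), while Pecam1 had 0.122 and 0.130 CPM. Tek had at most 3 counts in any library. The part of endothelial cells in the lower Cd36 values, or in those of Stab1, which was not called, was not tested.

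Markers of other blood cells were scarce. T cell, B cell and natural killer cell markers summed to at most 0.388 CPM in any library, and the 5 dendritic cell markers, led by Ccr7 and Zbtb46, to at most 3.08 CPM, with Xcr1 and Cd209a at 0 counts. The 5 mast cell markers, led by Tpsb2 and Cma1, summed to 7.27 to 13.1 CPM in WT and 4.23 to 5.21 CPM in SI. Neutrophil markers summed to 14.7 to 18.9 CPM in WT and 22.9 to 26.8 CPM in SI, nearly all from S100a8 and Camp, while S100a9, Ly6g and Mpo had at most 3 counts. The 7 mesothelial and fibroblast markers had more counts, at 547 to 609 CPM in WT and 585 to 751 CPM in SI, led by the collagen genes Col1a1 and Col1a2. These 2 and Dcn were higher in SI. The mesothelial gene Upk3b was lower, at 1.41 CPM in WT and 0.212 CPM in SI (edgeR adjusted p = 1.32e-05). Msln (7.16 and 4.44 CPM), Krt19 (2.34 and 1.23 CPM) and Col3a1 (88.4 and 71.0 CPM) had lower means in SI and were not called. Fibroblasts make Lrp1 too, and the part of these cells in its level was not tested. Large peritoneal macrophage markers, led by Prg4 and Icam2, summed to 14.1 to 17.3 CPM in WT and 13.3 to 16.9 CPM in SI. Timd4 of this list was lower in SI, at 1.51 CPM in WT and 0.517 CPM in SI (edgeR adjusted p = 0.00161), and Cxcl13, at 0.756 and 0.431 CPM, was not called.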

How the data were processed

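RNA-seq gene counts from 10 macrophage libraries were used, 5 WT and 5 SI. The authors deposited raw counts per gene and FPKM, per the file headers. The submitters' processing notes name CASAVA 1.8, TopHat2 2.0.6 and the builds mm10 and GRCm39, without saying which step used which. How genes were counted, with what annotation, strand option or filter, is not given in the sources used here. Gene coordinates are those of the count table, and promoter coordinates are GRCm38.p6. The 2 are not comparable. The 5 FPKM columns headed SI were not used. FPKM for the SI libraries was computed from counts with the gene length implied by the authors' deposited WT FPKM, which was constant over WT libraries within a relative spread of 4.54e-06.

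Counts were tested with edgeR 4.0.16 in R 4.3.3 (TMM scaling, low counts removed by filterByExpr at a minimum of 10, quasi-likelihood F test, SI minus WT, Benjamini-Hochberg adjustment over 14436 genes, threshold 0.05). The biological coefficient of variation was 12.8%. Ratios used a prior count of 2. The procedure was tested on simulated data. Libraries were no duplicates (chi-square per gene 9.71 to 19.4 within groups). Alternatives were DESeq2 1.42.0, limma-voom (limma 3.58.1), other scalings and filters, the replicate number as a block and each library left out. Fits without SI 1 and SI 3 were added after the data were seen.

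The members, gene lists and pairs were chosen with earlier results of these data known. Named genes were all members, the 2 called genes of smallest p in each direction and the tested gene with the most counts in each list, the 2 genes with the most counts in each marker list, and the 3 nearest profiles to the called members with the largest rise and fall. Markers named for being near 0 were chosen after their values were seen. Some genes that this rule would name are not reported here.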

Additional observations from a re-analysis of the deposited data

Results flagged for a closer look

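Among 20 sets of 5 values (10 receptors in 2 groups), 2 held a library that stood apart from its group by Dixon's test, where chance gives about 1 in 20. Msr1 in SI 3 was at 211 CPM, below the next SI library at 224 CPM. Scarb2 in WT 5 was at 389.7 CPM, above the next WT library at 379 CPM. Leaving either library out did not change the call of that gene.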

How the results depend on the processing

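The calls and directions of Msr1, Marco, Cd36, Mrc1 and Olr1 were the same in all 18 alternatives run, as was the absence of a call for Lrp1. Library totals moved the calls over all genes to 4231 higher and 1361 lower. Under that scaling 4 receptors were higher, with Scarb2 at 0.13 and Cd68 at 0.20 (log2). Higher genes numbered 3 among LDL and mannose receptor relatives, 5 among lipid fate genes (4 lower) and 5 among transcription factors. Stab1 became a call with DESeq2 size factors (-0.20), the stricter count filter (-0.19), the DESeq2 Wald test (-0.20) and limma-voom (-0.20). It was further from a call with library totals (-0.08) and without the low-count filter (-0.17). Leaving out 1 library at a time gave log2 fold changes of -0.23 to -0.14 for Stab1, called without WT 1, SI 2 or SI 5. The range was 0.066 to 0.11 for Cd68 and 0.10 to 0.13 for Scarb1, with 1 to 3 receptors called higher and 1 to 2 higher relatives of Lrp1 and Mrc1. The Stab1/Mrc1 difference ranged from 0.13 to 0.19. Without SI 1 and SI 3, Cd68 was called at 0.14, 2 relatives were higher, and the Scarb1/Scarb2 difference was 0.077 without a call. With the replicate block, whose numbers for SI come from column headings by assumption, 1765 genes were higher and 2015 lower. Then 1 receptor was higher, since Scarb1 at 0.11 lost its call, and Stab1 at -0.20 gained one. Deviations from the group means had r of -0.03 to 0.08 between same-numbered libraries and of -0.11 to 0.10 between the others. Since the SI numbers are only headings, this cannot exclude a pairing, and no label gives one. The ratios and the call of Scarb1 rest on 5 libraries a group. The cause of these changes was not tested. Genes at under 3 counts in a library cannot be told from absent.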
